A study of Mus musculus with 16 samples.

Results

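The collagen genes of the mouse pancreas were taken as every row of the raw count table whose symbol reads Col, a number, a, and a number (Col1a1, for example), which gave 44 of the 24411 rows. Of these, 32 passed a filter on low counts, namely 8 of 11 fibrillar, 8 of 8 basement membrane and 16 of 25 other collagens. Pancreas RNA came from 16 male C57BL6/J mice of 12 weeks, each sequenced as 1 library. The groups were 5 WT mice on control water, 7 Lep(ob/ob) mice on control water, and 4 Lep(ob/ob) mice (CCKRi) that drank a CCK receptor antagonist for 6 weeks from 6 weeks of age. Of these, 2 were given proglumide (0.1 mg/ml) and the other 2 lorglumide (0.05 mg/ml). Lep(ob/ob) mice lack functional leptin in every tissue and become obese. The labels say that WT mice were bred in house and Lep(ob/ob) mice purchased, whereas the methods of the study say that both were purchased. The labels give 2 batches. The first, A, contained 3 WT mice with 4 untreated obese mice, and the second, B, contained all 4 CCKRi mice with 2 WT mice and 3 untreated obese mice.

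Collagens are secreted proteins whose chains wind into trimeric helices. Fibrillar collagens such as types I, III and V form the cable-like fibres of connective tissue, which in the pancreas are laid down mainly by fibroblasts and stellate cells and which accumulate in fibrosis. Type IV collagen forms the sheet under epithelia, endothelia and around fat cells, with types XV and XVIII attached to it. Among the others, type VI makes beaded filaments, type VII anchors epithelia to the stroma, and the FACIT collagens (such as types XII, XIV, XVI and XX) sit on fibril surfaces. The chains are modified in the endoplasmic reticulum by prolyl and lysyl hydroxylases, trimmed outside the cell by proteases such as BMP1, and crosslinked by lysyl oxidases.

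The proximal promoters of the collagen genes on which the results turn are shown first, because type IV genes sit in head-to-head pairs. Promoters, 250 bases before to 50 after a start site, were read from RefSeq (GRCm38.p6) and were matched for 35 of the 44 genes, with 38 promoters in all. Those of Col4a1 and Col4a2 start 21 bases apart on opposite strands of chromosome 8 and their windows share 78 bases. The window of Col4a4 also holds the GENCODE start of Col4a3 on the other strand, 72 bases away. Col6a6 and Col20a1 are printed because, with Col4a4, they were the collagen genes that passed the test in Lep(ob/ob) mice. Capitals mark a TATA box, whose letters are TATAAA. They also mark a CCAAT box, spelled as its name is. The remaining motif was the GC box, which reads GGGCGG, and each was searched on both strands. A match is a description of letters and not of a bound site.
Col4a1, chr8:11312777-11313076, minus strand: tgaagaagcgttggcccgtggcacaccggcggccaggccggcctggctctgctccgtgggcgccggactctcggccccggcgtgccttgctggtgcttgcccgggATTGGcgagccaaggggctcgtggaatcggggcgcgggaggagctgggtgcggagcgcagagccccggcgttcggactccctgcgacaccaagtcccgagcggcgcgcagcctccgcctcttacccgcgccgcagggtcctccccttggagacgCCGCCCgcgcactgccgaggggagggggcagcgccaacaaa
Col4a2, chr8:11312555-11312854, plus strand: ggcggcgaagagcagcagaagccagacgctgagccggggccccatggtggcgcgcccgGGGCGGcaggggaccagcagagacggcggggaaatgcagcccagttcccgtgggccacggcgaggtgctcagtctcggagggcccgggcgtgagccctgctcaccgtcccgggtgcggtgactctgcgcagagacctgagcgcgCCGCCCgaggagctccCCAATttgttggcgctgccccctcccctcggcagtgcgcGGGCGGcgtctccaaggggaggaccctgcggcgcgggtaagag
Col4a4, chr1:82586800-82587099, minus strand: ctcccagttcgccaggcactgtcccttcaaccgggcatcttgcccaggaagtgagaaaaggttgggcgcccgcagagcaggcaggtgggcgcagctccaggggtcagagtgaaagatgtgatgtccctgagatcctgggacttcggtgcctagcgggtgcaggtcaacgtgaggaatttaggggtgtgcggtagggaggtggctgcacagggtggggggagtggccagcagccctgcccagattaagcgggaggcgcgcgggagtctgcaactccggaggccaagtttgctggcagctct
Col6a6, chr9:105828036-105828335, minus strand: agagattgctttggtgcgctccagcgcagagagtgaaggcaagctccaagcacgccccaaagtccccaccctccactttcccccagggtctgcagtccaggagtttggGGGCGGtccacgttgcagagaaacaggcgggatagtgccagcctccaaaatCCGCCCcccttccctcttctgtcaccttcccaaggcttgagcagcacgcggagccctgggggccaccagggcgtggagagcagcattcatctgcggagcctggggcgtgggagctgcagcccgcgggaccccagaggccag
Col20a1, chr2:180986285-180986584, plus strand: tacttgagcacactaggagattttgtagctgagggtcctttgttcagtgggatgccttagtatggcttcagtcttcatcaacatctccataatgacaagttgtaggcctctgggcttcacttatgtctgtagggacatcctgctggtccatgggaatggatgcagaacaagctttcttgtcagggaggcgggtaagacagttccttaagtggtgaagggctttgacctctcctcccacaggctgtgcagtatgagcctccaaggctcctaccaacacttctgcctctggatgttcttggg
Over the 38 collagen promoters, a GC box was found in 60.5% against 35.7% of all 32851 promoters in the table, a CCAAT box in 34.2% against 37.4%, and a TATA box in 13.2% against 13.6%. None of these motifs was found in the windows of Col4a4 and Col20a1.

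Between 9870673 and 34452570 reads per mouse were counted on genes, and collagen reads made up 0.0417% to 0.386% of them. Levels are given below as CPM, the count of a gene relative to the TMM-scaled library total, and a difference between groups as a log2 fold change with its standard error (SE), from edgeR's quasi-likelihood test on all 16 mice with batch as a covariate and Benjamini-Hochberg adjustment over 13660 genes. Acinar markers were high in every library (81450 to 690300 summed CPM), with batch A above batch B. Body weight ran from 24 to 32.3 g in WT and from 48.6 to 57.3 g in the other mice. The ob mutation does not remove the Lep transcript, whose level was 0.986 to 3.68 CPM in lean mice. It was 14.2 to 477 CPM in the untreated obese mice and 52.8 to 502 CPM with antagonist. There were 4 libraries that stood apart, as Lep(ob/ob) mice 417, 461 and 463 and CCKRi mouse 69 had 517 to 1749 summed CPM of 6 adipocyte markers (Adipoq, Plin1, Cidec, Fabp4, Cfd and Plin4, none at 0 in any mouse) against 60.9 to 391.9 in the other 12. In whole tissue, more cells of a type cannot be told apart from more RNA per cell.

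In WT pancreas the most abundant collagen transcript per length was Col3a1, the fibrillar type III chain, at 18.8 ± 5.02 CPM per kb of exon (SD, n = 5). It was followed by Col4a1 at 13.97 ± 4.83 and by Col7a1, the chain of the anchoring fibril, at 10.5 ± 3.54 CPM per kb. Neighbours in this order differed by less than the larger of their SDs from Col3a1 down to Col6a2, the ninth at 4.17 ± 1.14 CPM per kb. Below that, only Col5a3 and Col16a1 exceeded the next gene by more than both SDs, as Col6a2 did. Type I collagen was lower than type III in these units, with Col1a1 at 7.60 ± 3.52 and Col1a2 at 5.90 ± 2.00 CPM per kb. The minor type IV chains were far below the major ones, with Col4a4 at 0.240 ± 0.0168 and Col4a3 at 0.187 ± 0.0326 CPM per kb. The 12 genes that did not pass the filter had at most 10 reads in any mouse, and Col10a1, a chain of growth plate cartilage, had 0 reads in all 16.

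**Figure D1:**
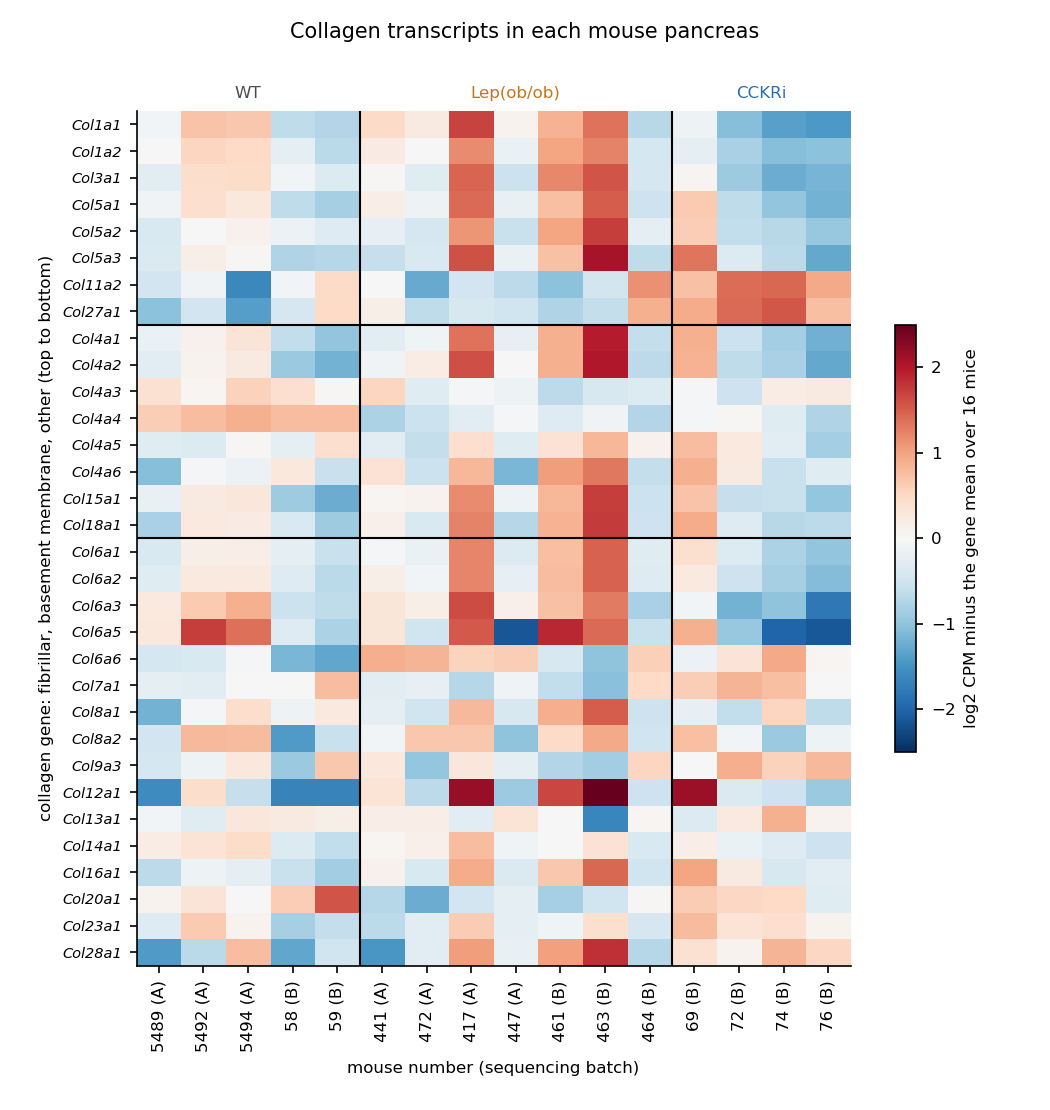
Log2 CPM of the 32 tested collagen genes (rows, fibrillar, basement membrane and other from top to bottom) in each of the 16 mice (columns, with batch), minus the mean of the gene over all mice. Of the 32 rows, 23 are highest in mouse 417, 461, 463 or 69, whereas Col4a4 is highest in WT mice.

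The first comparison asked which collagen genes differ in the obese pancreas. Lep(ob/ob) differed from WT in 3 of the 32 collagen genes: Col6a6 rose, and Col4a4 and Col20a1 fell. The share higher was 3.12% of the collagen genes against 5.93% of all genes tested, and the share lower was 6.25% against 3.14%, so the count was near that of genes in general. At an unadjusted p under 0.05, 5 collagen genes were higher and 3 were lower, where 12.2% and 11.6% of all genes were. The count higher rested on single mice. It was 1 without WT mouse 58, WT mouse 59 or Lep(ob/ob) mouse 417 (10.2%, 10.4% and 11% of all genes), and 12, 10 and 8 without Lep(ob/ob) mice 464, 447 and 472 (14.3%, 12.3% and 11.8%). The fold changes were above 0 in 25 of 32 genes, with a median of 0.54 on the log2 scale against -0.02 over all genes. By class the median was 0.60 for fibrillar, 0.73 for basement membrane and 0.38 for other collagens, with no fibrillar gene, 1 basement membrane gene and 2 others past the adjusted threshold. Medians were 2.2 for islet (4 of 7 called higher), 1.59 for adipocyte (1 of 6, lower) and 0.47 for macrophage markers. Fibroblast markers had 0.06 (1 of 7, higher), mesothelium 0.13, acinar -0.01 and pericyte and smooth muscle -0.04. Endothelial markers had -0.10 (1 of 6, lower), lymph node -0.25, duct -0.50 (1 of 5 each way) and the 1 Schwann cell marker tested -0.57. The part of these cells in the collagen differences was not tested.

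**Figure D2:**
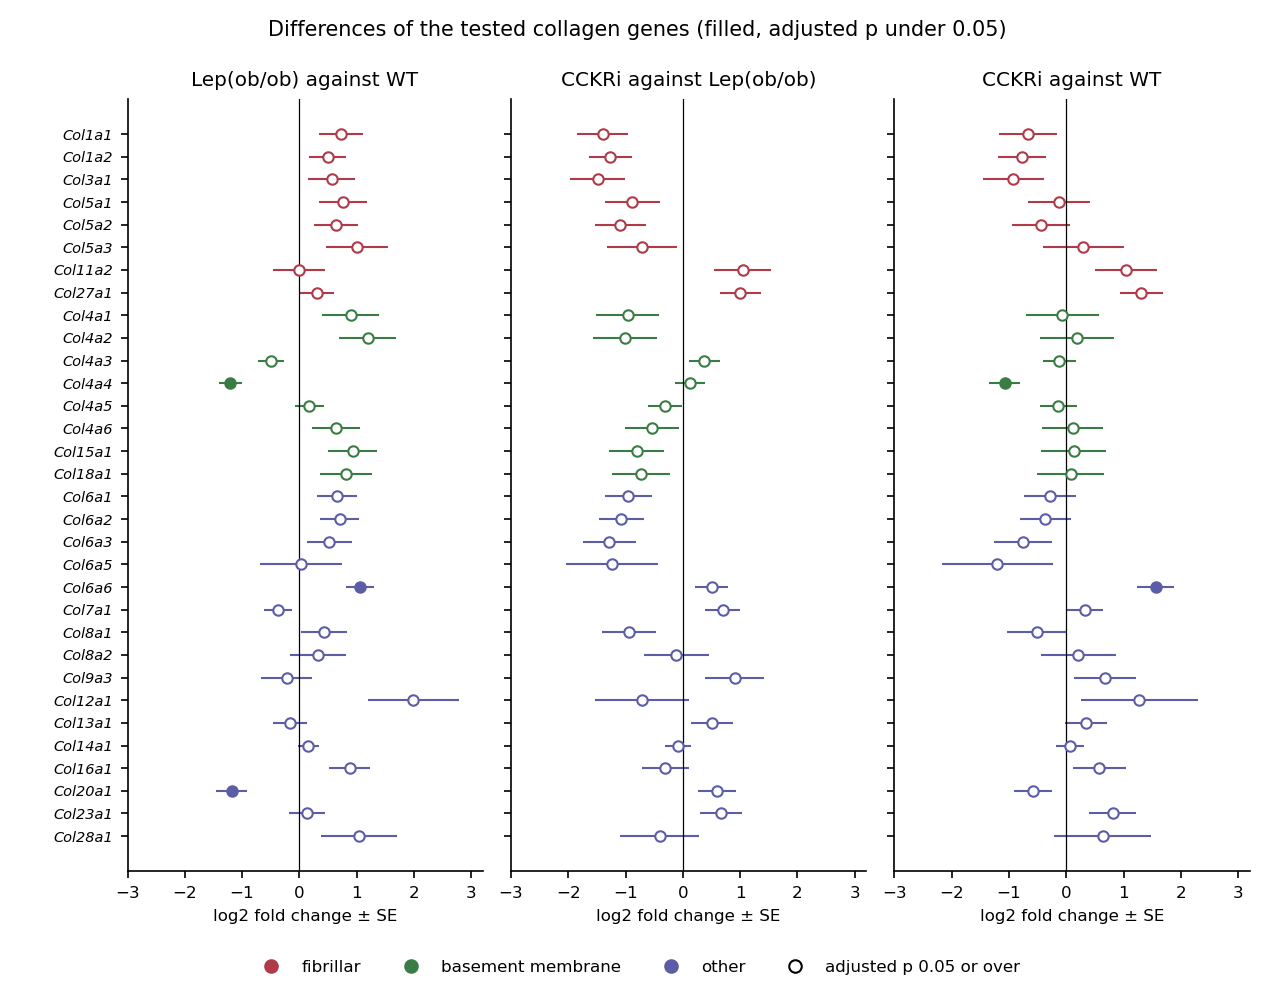
Log2 fold change with its SE for each tested collagen gene in the 3 comparisons, coloured by class. Filled points have an adjusted p under 0.05, which are Col4a4, Col6a6 and Col20a1 in the first comparison, none in the second, and Col4a4 and Col6a6 in the third.

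Col4a4 (GRCm38 chr1:82448423-82586849, minus strand), a minor type IV chain of specialised basement membranes, had the smallest p of all collagen genes. WT mice 5489, 5492, 5494, 58 and 59 had 2.28, 2.54, 2.78, 2.56 and 2.56 CPM, whereas Lep(ob/ob) mice had 0.782 at the lowest, a median of 1.13 and 1.40 at the highest, and CCKRi mice 69, 72, 74 and 76 had 1.39, 1.48, 1.16 and 0.809. Every WT mouse was above every obese mouse, treated or not, and WT mice of both batches were alike. The genes called were picked on these same values. The share of all genes with groups apart, here and for the genes below, was not counted. The log2 fold change was -1.20 ± 0.21 (SE) in Lep(ob/ob) against WT (edgeR adjusted p = 0.00151) and -1.07 ± 0.27 in CCKRi against WT (edgeR adjusted p = 0.0252). The latter call was lost without WT mouse 58 or 59 or CCKRi mouse 74 or 76 (edgeR adjusted p = 0.0712, 0.058, 0.0689 and 0.06). For Lep(ob/ob) against WT, the log2 fold change of Col4a4 was -1.15 in batch A alone (edgeR adjusted p = 0.0269) and -1.19 in batch B alone (edgeR adjusted p = 0.290). Its neighbour Col4a3, which shares the start region and partners Col4a4 in the same trimer, had a log2 fold change of -0.50 ± 0.22 in Lep(ob/ob) (edgeR adjusted p = 0.183). The ratio of Col4a4 to Col4a3 per kb in batch A ran from 1.08 to 1.55 in lean mice and from 0.333 to 0.972 in Lep(ob/ob). In batch B it ran from 1.20 to 1.58 in lean mice and from 0.678 to 1.17 in Lep(ob/ob), so these groups were apart in each batch and overlapped only with the batches pooled. The CCKRi mice, all of batch B, ran from 0.433 to 1.38 and overlapped both. Col4a4 had 11 to 49 reads in a mouse, and 5.65% of the exonic bases of Col4a3 overlap C430014B12Rik on the opposite strand.

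Col6a6 (chr9:105687809-105828160, minus strand), which encodes a less common chain of type VI collagen that can take the place of the Col6a3 chain, went the other way. WT mice 5489, 5492, 5494, 58 and 59 had 4.78, 5.01, 6.41, 2.93 and 2.62 CPM. Lep(ob/ob) mice ran from 3.19 to 12.4 CPM with a median of 10.03, and CCKRi mice 69, 72, 74 and 76 had 5.92, 8.24, 12.8 and 6.81 CPM. Over all mice the groups overlapped, but within each batch every Lep(ob/ob) mouse was above every WT mouse, and the lowest obese mice were 461 and 463 of batch B. The log2 fold change was 1.06 ± 0.25 in Lep(ob/ob) against WT (edgeR adjusted p = 0.0131) and 1.57 ± 0.32 in CCKRi against WT (edgeR adjusted p = 0.00677). Without the batch covariate the adjusted p from edgeR was 0.0793 and 0.0979. For Lep(ob/ob) against WT, the log2 fold change of Col6a6 was 1.076 in batch A alone (edgeR adjusted p = 0.00197) and 1.123 in batch B alone (edgeR adjusted p = 0.3603). Of the 50-base stretches in its transcripts, 3.54% also occur in other genes. These include Col6a5, which lies near it on chromosome 9 and had a log2 fold change of 0.03 ± 0.71 in Lep(ob/ob) mice.

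Col20a1 (chr2:180986535-181018363, plus strand), a FACIT collagen, was lower in Lep(ob/ob) mice. The WT mice in the same order had 1.82, 2.14, 1.70, 2.65 and 5.29 CPM, Lep(ob/ob) mice ran from 0.656 to 1.72 with a median of 1.17, and CCKRi mice had 2.69, 2.48, 2.43 and 1.35 CPM. Within each batch all Lep(ob/ob) mice were below all WT mice, with only 2 WT and 3 Lep(ob/ob) mice in batch B. WT mouse 59 was far above the other WT mice, and Col20a1 had 12 to 87 reads in a mouse. The log2 fold change in Lep(ob/ob) was -1.18 ± 0.27 (edgeR adjusted p = 0.0117), and without WT mouse 59 it was -0.89 with an edgeR adjusted p of 0.0587. It was -0.748 in batch A alone (edgeR adjusted p = 0.2134) and -1.656 in batch B alone (edgeR adjusted p = 0.2185), so neither batch alone called it. CCKRi mice had a log2 fold change of 0.60 ± 0.33 against Lep(ob/ob) (edgeR adjusted p = 0.414) and of -0.58 ± 0.34 against WT (edgeR adjusted p = 0.432). A transcript on the same strand, BX649560.1, overlaps 1.54% of its exonic bases.

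**Figure D3:**
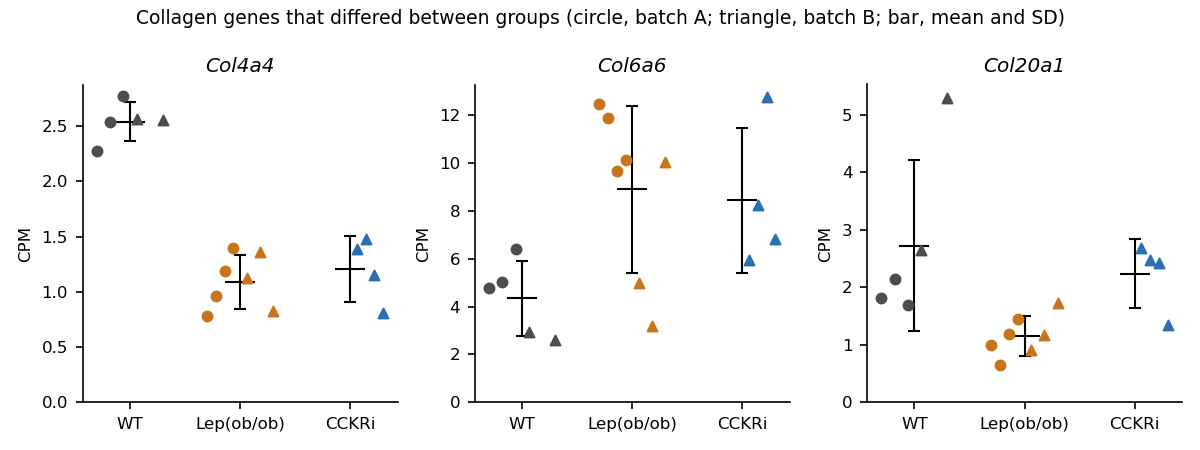
CPM of Col4a4, Col6a6 and Col20a1 in each mouse, with circles for batch A, triangles for batch B, and bars for the group mean and SD. All 5 WT mice lie above the 11 obese mice for Col4a4, and the groups overlap for Col6a6 and Col20a1 when both batches are pooled.

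The abundant collagens of Lep(ob/ob) mice were spread over a wide range. Col3a1 was at 145, 236.5, 238, 167 and 137 CPM in the WT mice, at 120 to 520 CPM with a median of 178 in Lep(ob/ob), and at 184, 92.4, 74.1 and 78.1 CPM in CCKRi mice. Its highest values were those of mice 463, 417 and 461, and the other Lep(ob/ob) mice lay between 120 and 178 CPM, inside or below the WT range. Its log2 fold change in Lep(ob/ob) was 0.56 ± 0.40 (edgeR adjusted p = 0.425).
The chains of type I collagen, the main fibre of scar tissue, had the same 3 mice on top. Col1a1 was at 43.8, 75.1, 73.4, 29.5 and 27.6 CPM in WT, at 28.2 to 147.9 CPM with a median of 63.6 in Lep(ob/ob), and at 41.9, 21.9, 17.7 and 16.8 CPM in CCKRi mice. Col1a2 was at 67.95, 100.1, 97.25, 58.1 and 42.9 CPM in WT, at 50.5 to 162 CPM with a median of 79.2 in Lep(ob/ob), and at 58.2, 39.1, 32.6 and 33.6 CPM in CCKRi mice. Lep(ob/ob) overlapped WT for both, with log2 fold changes of 0.73 ± 0.38 and 0.50 ± 0.32 (edgeR adjusted p = 0.259 and 0.369).

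The 2 main chains of the basement membrane, Col4a1 and Col4a2, kept close to each other across these levels. Col4a1 was at 106.5 CPM in the median WT mouse (59.9 to 148.2 CPM), at 79.3 to 468 CPM with a median of 109.9 in Lep(ob/ob), and at 220.3, 81.9, 66.1 and 51.4 CPM in CCKRi mice. Col4a2 was at 60.1, 77.5, 84.4, 38.1 and 31.9 CPM in WT, at 46.4 to 290.1 CPM with a median of 82.2 in Lep(ob/ob), and at 133, 47, 41.4 and 30 CPM in CCKRi mice. For both, all of mice 463, 417, 461 and 69 were above all other mice. While Col4a1 varied from 51.4 to 468 CPM, the ratio of Col4a1 to Col4a2 per kb stayed between 1.18 and 1.82, and within each batch the ratios of Lep(ob/ob) mice were below those of WT mice. The log2 fold changes in Lep(ob/ob) were 0.89 ± 0.49 and 1.19 ± 0.50 (edgeR adjusted p = 0.287 and 0.154). Col15a1, a linker between basement membrane and stroma, was at 32.1, 42.7, 44.8, 19.9 and 15.3 CPM in WT, at 25.0 to 121.7 CPM with a median of 38.8 in Lep(ob/ob), and at 60.2, 24.5, 24.9 and 18.7 CPM in CCKRi mice. The same 4 mice were again highest, and its log2 fold change was 0.93 ± 0.43 (edgeR adjusted p = 0.198).

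Among the other collagens, the type VI chains Col6a1 and Col6a2 had mice 463, 417 and 461 highest, as Col3a1 did. Col6a1 was at 33.1, 47.9, 48.9, 36.9 and 29.6 CPM in WT, at 34.0 to 120.2 CPM with a median of 42.5 in Lep(ob/ob), and at 57.1, 33.95, 25.0 and 21.9 CPM in CCKRi mice. Col6a2 was at 30.4, 44.9, 44.4, 30.2 and 23.6 CPM in WT, at 30.2 to 105.6 CPM with a median of 41.5 in Lep(ob/ob), and at 44.5, 26.2, 21.0 and 17.8 CPM in CCKRi mice. The untreated groups overlapped for both, with log2 fold changes of 0.66 ± 0.35 and 0.71 ± 0.34 (edgeR adjusted p = 0.260 and 0.218).
Col7a1 had another distribution. It was at 84.6, 81.6, 101, 99.97 and 170.8 CPM in WT, at 48.2 to 140.9 CPM with a median of 81.9 in Lep(ob/ob), and at 152, 180.7, 168 and 99.8 CPM in CCKRi mice. Its lowest values were in mice 463, 417 and 461, where summed fibrillar CPM was highest, and its log2 fold change in Lep(ob/ob) was -0.37 ± 0.24 (edgeR adjusted p = 0.381).

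The collagens as a whole were highest in the 4 mice with the most adipocyte RNA. Summed fibrillar CPM was 937, 727, 1001 and 403 in mice 417, 461, 463 and 69, against 166 to 485 in the other 12 mice. Basement membrane collagens separated more clearly, at 678, 476, 972 and 474 CPM in these mice against 122 to 317 in the others. The highest mouse was among these 4 for 23 of the 32 collagen genes (71.9%, against 30.1% of all genes tested), and for 11 (34.4%, against 4.76%) all 4 lay above all other mice. The 9 genes highest in another mouse were Col4a3, Col4a4, Col6a6, Col7a1, Col9a3, Col11a2, Col13a1, Col20a1 and Col27a1. Macrophage markers (6 genes) were also higher in the 4 mice, at 136 to 340 summed CPM against 46.7 to 93.6, and fibroblast markers (7 genes) ran from 342 to 733 against 149 to 368. Of the fibroblast markers, Dcn had the highest level, 92.9 to 525 CPM over all mice. Dcn and Lum are also counted among the fibril partners below. Mesothelium markers (3 genes) summed to 50.2 to 106.6 CPM in the 4 mice against 10.9 to 60.7, and duct markers (5 genes) to 36.1 to 52.7 against 51.1 to 70.5. Lymph node markers summed to 13.99 to 39.7 CPM in the 4 mice against 1.35 to 28.3, with the defining gene Ccl21a at 0 in all 16 mice. The part of any of these cells in the collagen levels was not tested.

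**Figure D4:**
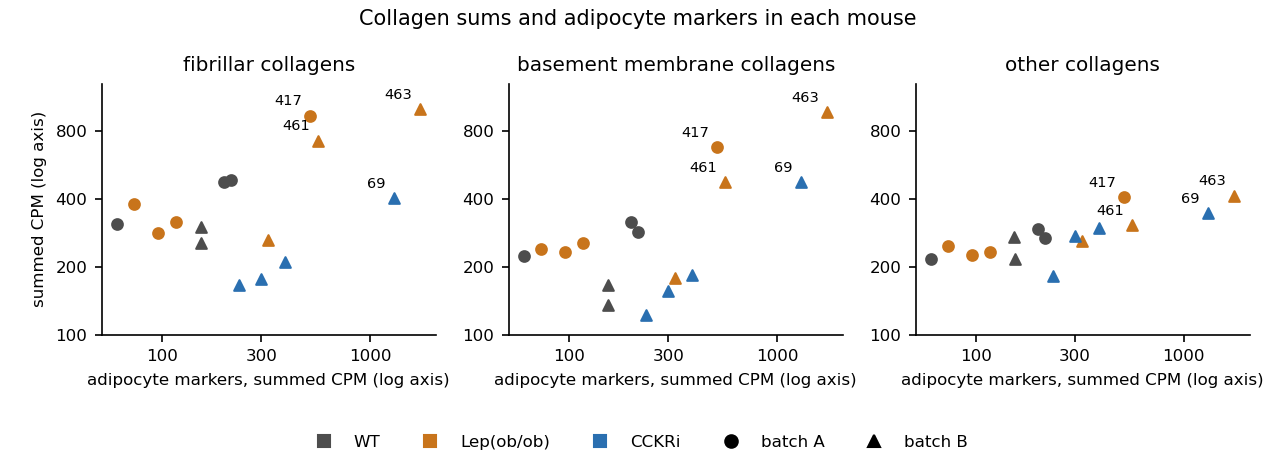
Summed CPM of fibrillar, basement membrane and other collagens in each mouse against the summed CPM of 6 adipocyte markers, both on log axes, coloured by group with circles for batch A and triangles for batch B. Mice 417, 461, 463 and 69 lie at the right, and all 4 are above the other mice for basement membrane collagens.

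Without these 4 mice the collagens of Lep(ob/ob) no longer lay above those of WT. The median log2 fold change of the 32 genes went from 0.54 to -0.14, with 9 above and 23 below 0, and was -0.16 for fibrillar, -0.14 for basement membrane and -0.13 for other collagens. Col4a4 (-1.33, edgeR adjusted p = 0.0016), Col6a6 (1.31, edgeR adjusted p = 0.000123) and Col20a1 (-0.98, edgeR adjusted p = 0.0369) remained the 3 collagen genes called, where 12.3% of all genes were. Col3a1 turned from 0.56 to -0.40 (edgeR adjusted p = 0.125). This fit leaves Lep(ob/ob) mouse 464 alone in its group in batch B. The adipocyte marker level used as a covariate was the mean log2 CPM of the 6 markers, 1 of which was called lower in Lep(ob/ob). With this covariate in all 16 mice, the same 3 genes and Col12a1, a FACIT collagen of tendon and fascia (1.02, edgeR adjusted p = 0.031), were called, against 12.8% of all genes, and the median was 0.10. Over all mice, Col12a1 had the largest log2 fold change of the collagens, 1.99 ± 0.80 (edgeR adjusted p = 0.136).

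**Figure D5:**
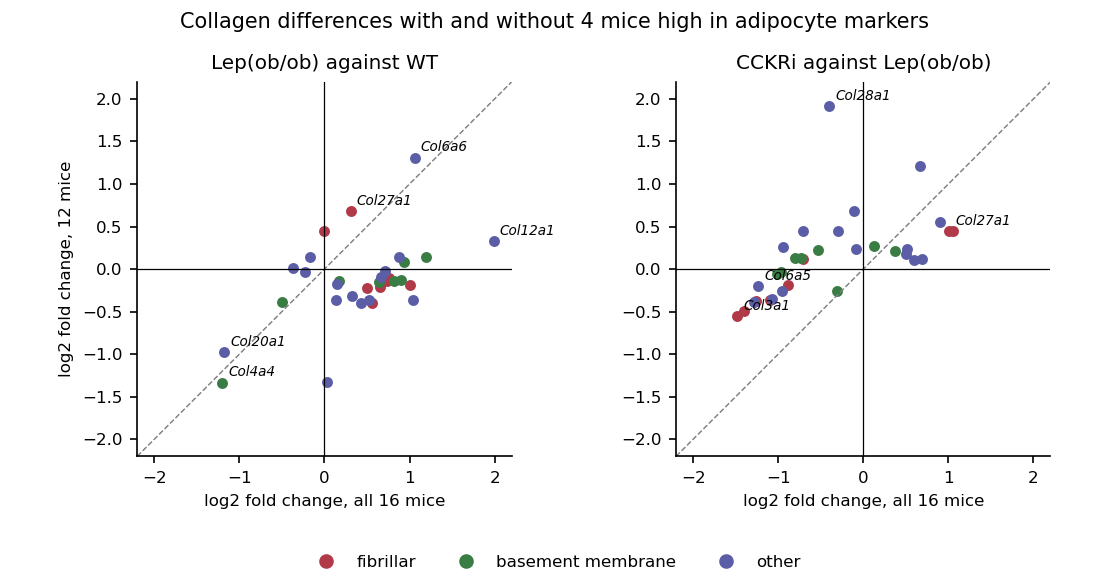
Log2 fold change of each tested collagen gene with all 16 mice (horizontal) and without the 4 mice high in adipocyte markers (vertical), with a dashed line of equal values, for Lep(ob/ob) against WT and for CCKRi against Lep(ob/ob). Most genes move to near 0 or below on the vertical axis for Lep(ob/ob) against WT, while Col4a4, Col20a1 and Col6a6 stay near the line.

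The batches gave different sizes of difference. In batch A the median log2 fold change of the collagens was 0.28, and Col4a4 and Col6a6 were called (8.05% of all genes), with 2 collagen genes higher and 2 lower at an unadjusted p under 0.05 against 12.7% and 8.01%. In batch B the median was 1.20 and no collagen gene was called (0.0586% of all genes), but 16 were higher and 2 lower at an unadjusted p under 0.05, against 8.71% and 5.43% of all genes. Batch B held 2 of the 3 Lep(ob/ob) mice high in adipocyte markers, and their part in the sizes of difference was not tested. In the test of the difference between batches, no collagen gene and 0% of all genes had an adjusted p under 0.05 in edgeR. At an unadjusted p under 0.05, 2 of 32 collagen genes, Col15a1 and Col6a5, were called against 11.8% of all genes. That count was 18 without Lep(ob/ob) mouse 417 (17.1% of all genes), 12 without 464 (29.6%), 3 without WT mouse 5489 (10.4%), 1 without WT mouse 58 or Lep(ob/ob) mouse 447 (11.6% and 9.18%), and 0 without any other mouse (5.28% to 9.93%). Without Lep(ob/ob) mouse 464 the adjusted test of this difference called 2 of 32 collagen genes (6.25%), where it called 9.14% of all genes.

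The second comparison asked whether the antagonists changed collagen transcripts in Lep(ob/ob) mice. The third compared treated mice with lean ones, and all 3 comparisons share mice. No collagen gene passed the adjusted threshold between CCKRi and Lep(ob/ob) in edgeR or in DESeq2 (0.0293% of all genes were higher and 0.0293% lower in edgeR). At an unadjusted p under 0.05, 7 collagen genes were lower (21.9%, against 6.74% of all genes) and 3 were higher (9.38%, against 7.54%). Single mice moved these counts. The count lower was 16 without CCKRi mouse 69 (11.5% of all genes), 12 without Lep(ob/ob) mouse 464 (11%), 3 without Lep(ob/ob) mouse 463 (4.70%) and 4 without CCKRi mouse 76 (7.78%). It was 15 with the lorglumide mice alone (8.33%) and 0 with the proglumide mice alone (5.78%). The count higher was 5 without Lep(ob/ob) mouse 464 (10.4% of all genes) and 1 without Lep(ob/ob) mouse 461 or CCKRi mouse 72 or 74 (3.5%, 5.25% and 3.46%). The 7 lower genes were Col1a1, Col1a2, Col3a1 and Col5a2 of the fibrillar class and Col6a1, Col6a2 and Col6a3, the common chains of type VI. The 3 higher genes were Col7a1 and the fibrillar Col11a2 and Col27a1. The median log2 fold change was -0.62 over the collagens against -0.01 over all genes, and -0.99, -0.63 and -0.21 in the fibrillar, basement membrane and other classes. No marker gene of any cell type was called in this comparison, and the median log2 fold change was -1.17 for macrophage, -1.09 for mesothelium, -0.83 for lymph node, -0.67 for acinar, -0.42 for fibroblast and -0.38 for adipocyte markers. It was -0.20 for endothelial, 0.01 for pericyte and smooth muscle, 0.20 for duct and 0.53 for islet markers and 0.87 for the 1 Schwann cell marker tested, and the part of these cells in the collagen differences was not tested.

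Of the named genes, the fibrillar ones had the lowest fold changes. Col3a1 had a log2 fold change of -1.49 ± 0.48 against Lep(ob/ob), Col1a1 of -1.40 ± 0.45 and Col1a2 of -1.26 ± 0.38 (edgeR adjusted p = 0.263, 0.263 and 0.241). For these genes, CCKRi mice 72, 74 and 76 were below all WT and Lep(ob/ob) mice, whereas mouse 69 lay within their range. Col4a1 and Col4a2 had log2 fold changes of -0.97 ± 0.55 and -1.01 ± 0.56 (edgeR adjusted p = 0.420 and 0.409). Col7a1 was the only named gene of high level with a positive difference, 0.70 ± 0.30 (edgeR adjusted p = 0.323). Col27a1, a fibrillar collagen of cartilage singled out after its values were seen, ran from 9.64 to 16.8 CPM in CCKRi mice and from 3.31 to 10.6 in Lep(ob/ob), which overlap, with a log2 fold change of 1.01 ± 0.36 (edgeR adjusted p = 0.277).

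Without the batch covariate, edgeR called Col1a1, Col1a2 and Col27a1 (9.38% of the collagen genes, against 4.17% of all genes). The 4 mice high in adipocyte markers were the highest of their groups in summed collagen CPM. Without the 4 mice, the median over the collagens was 0.13, 20 genes were above and 12 below 0, and no collagen gene was called (0.0732% of all genes). The class medians were then -0.28 for fibrillar, 0.13 for basement membrane and 0.24 for other collagens. At an unadjusted p under 0.05, Col3a1 at -0.56 and Col1a1 at -0.50 were lower (edgeR adjusted p = 0.735 and 0.766), where 2.94% of all genes were. Col23a1 at 1.21 and Col28a1 at 1.92 were higher (edgeR adjusted p = 0.651 and 0.766), where 3.18% of all genes were. With the adipocyte marker level as a covariate, all 7 genes named above as lower were called (1.03% of all genes), with Col3a1 at -1.22, Col1a1 at -1.15 and Col1a2 at -1.03 (edgeR adjusted p = 0.00986, 0.00382 and 0.00986). In batch B alone no collagen gene was called and Col3a1 was at -1.69 (edgeR adjusted p = 0.402).

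The antagonists were given at different doses, so their values are set side by side only. Fibrillar collagens summed to 403 and 211 CPM in the proglumide mice (69 and 72) and to 177 and 166 CPM in the lorglumide mice (74 and 76). Basement membrane collagens summed to 474 and 185 CPM with proglumide and to 157 and 122 CPM with lorglumide. The 2 proglumide mice thus differed from each other more than mouse 72 differed from the lorglumide mice, and mouse 69 held 1304 CPM of adipocyte markers against 392, 299.5 and 234 in the other 3. Lorglumide is a chlorinated analog of proglumide with longer amide chains, and the response to this change could not be compared at these doses.

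Against WT, CCKRi mice were higher in Col6a6 and lower in Col4a4, with the values given above, which is 1 of 32 genes (3.12%) in each direction where 4.22% of all genes were higher and 1.35% lower. At an unadjusted p under 0.05, 2 collagen genes were higher and 1 was lower, where 9.39% and 7.28% of all genes were. The count lower was 5 without CCKRi mouse 69 (7.55% of all genes) and 2 without WT mouse 59 (9.46%). The median log2 fold change was 0.07, with 17 genes above and 15 below 0. In batch B alone, which held all CCKRi mice, the median was 0.32, with 22 genes above and 10 below 0. There 6 collagen genes were higher and 1 was lower at an unadjusted p under 0.05, against 7.75% and 4.35% of all genes. Over all mice, 5 of 7 islet markers were higher in CCKRi than in WT, with a median log2 fold change of 2.36. The median was 1.21 for adipocyte markers (1 of 6 called, lower), -1.15 for lymph node, -0.97 for mesothelium, -0.87 for acinar and -0.66 for macrophage markers. It was -0.35 for fibroblast, -0.28 for endothelial, -0.06 for pericyte and smooth muscle and -0.03 for duct markers (1 of 5 called each way). The 1 Schwann cell marker tested was at 0.3, and the part of these cells in the collagen differences was not tested. Col27a1, at 2.10 to 8.09 CPM in WT, was 1.31 ± 0.37 higher on the log2 scale in CCKRi mice, which lay above every WT mouse, and its edgeR adjusted p was 0.0501. Col3a1 was at -0.92 ± 0.53 (edgeR adjusted p = 0.422). Without the 4 mice, 8 collagen genes were called (9.59% of all genes): Col6a6 and Col27a1 higher, and Col1a1, Col1a2, Col3a1, Col4a4, Col5a2 and Col6a3 lower. With the adipocyte covariate 11 were called (13.3% of all genes), namely these 8 with Col6a1, Col6a2 and Col6a5.

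Of 84 genes that make, process, bind or break down collagen, 83 were in the table and 77 passed the filter. In Lep(ob/ob) against WT, 2 rose (2.6%, against 5.93% of all genes tested) and none fell (against 3.14%), with a median log2 fold change of 0.29 over the list and of -0.02 over all genes. P3h1, a prolyl 3-hydroxylase of the endoplasmic reticulum that acts on fibrillar chains, was at 2.01 to 3.03 CPM in WT. It was at 3.32 to 11.1 CPM in the untreated obese mice and at 3.59 to 6.64 CPM in CCKRi mice. All obese mice were above all WT mice, the 4 mice high in adipocyte markers were highest (5.04 to 11.1 CPM), and the log2 fold change in Lep(ob/ob) was 1.12 ± 0.28 (edgeR adjusted p = 0.0175). Bmp1, the protease that removes the C-terminal propeptide of fibrillar procollagens, was at 5.61, 9.43 and 10.4 CPM in WT of batch A and at 11.2 to 17.4 CPM in Lep(ob/ob) of that batch. In batch B it was at 11.1 and 14.1 CPM in WT and at 14.3 to 24.6 CPM in Lep(ob/ob). The groups were apart in each batch and overlapped only with the batches pooled, mice 463, 69 and 417 were highest, and the log2 fold change was 0.63 ± 0.19 (edgeR adjusted p = 0.0442). Without the 4 mice, P3h1 was at 0.67 and Bmp1 at 0.46 (edgeR adjusted p = 0.0146 and 0.0723), and the median of the list was -0.13, with 1 gene called higher and 7 lower, where 12.3% of all genes were called in either direction. Crosslinking enzymes (6 tested) and fibril partners such as decorin (9 tested) had medians of 0.46 and 0.42 with no gene called.

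In CCKRi against Lep(ob/ob) none of the 77 genes was called by edgeR, 26 were lower (33.8%, against 6.74% of all genes) and 1 higher (1.3%, against 7.54%) at an unadjusted p under 0.05, and the median was -0.56 against -0.01 over all genes. The fibril partners were lowest, with a median of -1.27 and 7 of 9 lower at that unadjusted threshold. Without the 4 mice, 5 genes of the list were lower at that threshold (6.49%, against 2.94% of all genes), 2 of them fibril partners, and the median of the list was -0.09. With the adipocyte marker level as a covariate, 32 were lower at that threshold (41.6%, against 9.30% of all genes), 8 of them fibril partners, 5 were called by edgeR (6.49%, against 1.03% of all genes), and the median was -0.41. Against WT, 1 of the 77 genes fell in CCKRi mice (1.3%, against 1.35% of all genes) and none rose (against 4.22%). It was Lamb3, a laminin chain of epithelial basement membranes. It was at 21.5, 24.7, 27.1, 5.58 and 4.08 CPM in WT, at 3.77 to 15.7 CPM with a median of 10.2 in Lep(ob/ob), and at 1.97, 1.95, 2.19 and 3.03 CPM in CCKRi mice. All CCKRi mice were below all other mice, WT mice of batch A were far above those of batch B, and the log2 fold change against WT was -1.44 ± 0.27 (edgeR adjusted p = 0.00375). Of the cell markers, islet genes moved most with genotype, with a median log2 fold change of 2.2 against 1.59 for adipocyte markers. Among the 7 islet markers, 4 were higher in Lep(ob/ob), with a summed level of 1300 to 1915 CPM in WT against 2565 to 13120 CPM. The part of these cells in the collagen results was not tested.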

How the data were processed

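Pancreas polyA RNA of 16 mice was sequenced in strand-specific paired-end libraries. Per the submitters' processing notes, trimming used Trim Galore 0.6.7 (cutadapt 3.5) and alignment to mm10 used STAR 2.7.9. The authors deposited the raw count of reads per gene symbol. The read counter, strand setting and annotation are not given in the sources used here. The deposited normalized table was not used. Samples were grouped by the labels' genotype and treatment, with both antagonists pooled, and no 2 libraries were alike (chi-square per gene 8.55 to 444 within groups). With edgeR 4.0.16 in R 4.3.3 (limma 3.58.1), filterByExpr kept 13660 genes, and the quasi-likelihood test was fitted to 3 groups and batch after TMM scaling, with Benjamini-Hochberg adjustment and a threshold of 0.05. Log2 CPM used a prior count of 2. SEs were derived from the F statistic. The fit of Lep(ob/ob) against WT was tried on simulated counts with the same spread for every gene and no batch difference. There edgeR recovered 37 of 40 genes changed by a log2 fold change of -1 and 36 of 40 changed by 1. The other comparisons were not simulated. Exon lengths came from GENCODE (GRCm38). The labels do not pair mice between groups, and each library is a separate mouse. The collagen genes and the lists of pathway and marker genes were chosen with earlier results of these data known.

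Collagen genes were named with values per mouse if their adjusted p was under 0.05 in a comparison or if they were among the 3 with the highest mean CPM of their class, and pathway genes if their adjusted p was under 0.05. Alternatives were no batch covariate, DESeq2 1.42.0, RLE scaling, scaling without the 50 genes of highest count, another filter (none, or a minimum of 10 counts per mouse), fits of single pairs of groups, of a single batch or of a single drug, leaving out each mouse or 4 mice high in adipocyte markers, and the adipocyte marker level as a covariate.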

Additional observations from a re-analysis of the deposited data

Results flagged for a closer look

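Among 45 sets of mice (the named collagen and pathway genes in each group), 2 held a mouse far from the rest by Dixon's ratio of the gap to the range, taken on log2 CPM, where chance flags about 1 in 20. Col20a1 was at 1.35 CPM in CCKRi mouse 76 and at 2.43 to 2.69 CPM in the other CCKRi mice, with a ratio of 0.85. Col7a1 was at 171 CPM in WT mouse 59 and at 81.6 to 101 CPM in the other WT mice, with a ratio of 0.711.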

How the results depend on the processing

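Another scaling (RLE, or without the 50 genes of highest count), DESeq2 and other filters kept the direction of each named collagen gene, and the collagen genes called stayed within 1 of the counts given above. Without the batch covariate, 3 collagen genes were called in CCKRi against Lep(ob/ob) where 0 were with it (570 and 8 over all genes). Col6a6 was then at -0.0772 in that comparison and Col4a1 at 0.00891 in CCKRi against WT. In Lep(ob/ob) against WT, 0 collagen genes were called in batch B alone (8 over all genes, against 1239 in the main fit). In CCKRi against WT, where 2 were called, the count was 1 with only those groups, 0 in batch B alone and 0 with the proglumide mice alone. Over all genes the count went from 761 to 277, 79 and 240 in these 3 fits. In these same fits Col4a1 was at 0.62, 0.62 and 0.46, Col6a1 at 0.0680, 0.0703 and 0.11, and Col6a2 at 0.0412, 0.0429 and 0.000704. With the lorglumide mice alone, Col4a4 was at -0.16 against Lep(ob/ob), and Col4a2 was at -0.60 and Col15a1 at -0.40 against WT.

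Without the 4 mice high in adipocyte markers, the count in CCKRi against WT was 8 (9.59% of all genes). The log2 fold changes in Lep(ob/ob) against WT that turned were those of Col3a1 (-0.40), Col1a2 (-0.23), Col1a1 (-0.14), Col4a1 (-0.13), Col6a1 (-0.0892), Col6a2 (-0.0208) and Col7a1 (0.00807), and Col15a1 was at 0.13 in CCKRi against Lep(ob/ob). With the adipocyte covariate, 7 collagen genes were called in CCKRi against Lep(ob/ob) and 11 in CCKRi against WT (1.03% and 13.3% of all genes). Col3a1 was then at -0.0278 in Lep(ob/ob) against WT, and Col4a2 was at -0.24 and Col15a1 at -0.13 in CCKRi against WT. For the 77 pathway genes, these alternatives were chosen after seeing the data. Without the 4 mice, 8, 0 and 11 were called in the 3 comparisons in the order described, against 12.3%, 0.0732% and 9.59% of all genes. With the covariate, 6, 5 and 18 were called, against 12.8%, 1.03% and 13.3% of all genes. The main fit called 2, 0 and 1 of the pathway genes. The cause of these shifts was not tested.

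Leaving out each mouse gave 2 to 3 collagen genes called in Lep(ob/ob) against WT (2 without WT mouse 59), 0 in CCKRi against Lep(ob/ob), 1 to 3 in CCKRi against WT (1 without WT mouse 58 or CCKRi mouse 74, 3 without CCKRi mouse 69) and 0 to 2 between batches. In the same order, these fits called 846 to 1430, 0 to 9, 519 to 835 and 0 to 1249 of all genes. In CCKRi against WT, Col4a1 ran from -0.70 to 0.16, Col4a2 from -0.46 to 0.41 and Col15a1 from -0.35 to 0.315, and in CCKRi against Lep(ob/ob) Col4a4 ran from -0.0103 to 0.27. Over all genes, edgeR called 1239, 8 and 761 in the 3 comparisons in the order described, DESeq2 1695, 104 and 1064, and edgeR without batch 798, 570 and 1428. No paired analysis was possible because the groups share no replicate number. Depth was lower in batch B (9870673 to 15884901 reads) than in batch A (19191219 to 34452570 reads). Collagen genes below the filter were tested only in the fit without a filter on low counts, which took in 43 collagen genes. It called 4 in Lep(ob/ob) against WT, 0 in CCKRi against Lep(ob/ob) and 3 in CCKRi against WT. Over all genes it called 1260, 6 and 774.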

Other observations

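The ratio of Col6a3 to Col6a1, chains of the same type VI trimer, was apart between the batches, at 0.217 to 0.287 per kb of exon in the 7 mice of batch A and at 0.0979 to 0.173 in the 9 mice of batch B. The ratio of Col1a1 to Col4a1 per kb was 0.216 to 0.371 in the CCKRi mice, all of batch B. In the same batch it was 0.285 to 0.431 in the 3 untreated obese mice, which overlap, and 0.431 to 0.524 in the 2 WT mice. In batch A it was 0.536 to 0.726 and 0.467 to 0.663. Col25a1, a transmembrane collagen mainly of neurons, did not pass the filter. It had 0, 0, 0, 0 and 1 reads in the WT mice, 5, 4, 7, 4, 0, 5 and 1 in the Lep(ob/ob) mice, and 2, 4, 4 and 2 in the CCKRi mice.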
